A study of Mus musculus with 3 samples.

Results

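The cytoplasmic actins and 8 genes whose products bind, cut or pull on actin filaments were examined in UMI-RNAseq data of NIH3T3 cells, a line of mouse embryonic fibroblasts. The 10 genes were found by their gene names among the 55573 genes listed, and each name matched 1 gene: Actb, Actg1, Pfn1, Pfn2, Tmsb4x, Tmsb10, Cfl1, Cfl2, Myh9 and Myh10. The cells were untreated and grown in DMEM with fetal bovine serum, and the data hold 3 libraries of this 1 condition, called library 1, 2 and 3 here. UMI-RNAseq tags each molecule before amplification, so that PCR copies can be removed. Levels are given as FPKM, which scales the fragments of a gene to its length in kilobases and to the total of the library. The library totals recovered from the FPKM values lay between 13959723 and 14423209 fragments. The sources used here do not give whether separate cultures lie behind the libraries, and the spread between them may be technical.

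The sample labels name the cell line but describe an extraction from retina, so the cell type was checked against marker genes. All 12 fibroblast markers had a mean FPKM of at least 1, from 2.97 for S100a4 to 4377 for Fn1, and their sum ranged from 10010 to 10130 FPKM between libraries. None of 12 retina markers reached an FPKM of 1, their sum ranged from 1.16 to 1.76 FPKM, and Nrl was listed at 0. Of 10 muscle markers only Des reached a mean of 1, at 1.06 FPKM, their sum ranged from 1.14 to 2.04, and Myod1, Myog, Myh1, Myh4 and Actn2 were listed at 0. Of 10 blood cell markers only Cd68 did, at 2.12 FPKM, with a sum from 1.92 to 3.17 FPKM and Cd3e, Ms4a1 and Itgam listed at 0.

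Actin exists as monomers and as filaments, and a cell moves and holds its shape by turning one into the other. Profilins hand monomers to growing filament ends, beta-thymosins hold monomers in reserve, and cofilins cut filaments and speed their disassembly. Nonmuscle myosin II forms bipolar filaments that slide actin filaments past each other, which gives fibroblasts their contractile stress fibres. Each of these roles is filled by a pair of paralogs among the genes described, which makes the sequences of the pairs important for counting: a read can be assigned to 1 gene only where the copies differ.

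The coding sequences of Actb and Actg1 are both 1128 bases long, and 88.65% of their bases are identical in the principal isoforms of GENCODE M21. The encoded proteins of 375 residues differ at 4 residues. The first 60 coding bases, which hold all 4 of the codons for these residues, are shown with the 9 bases that differ between them in capitals. They lie at chr5:142905627-142905686 for Actb and at chr11:120348032-120348091 for Actg1, in a coding exon on the minus strand of GRCm38 in both.
Actb: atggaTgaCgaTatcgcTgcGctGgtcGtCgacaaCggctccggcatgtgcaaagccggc
Actg1: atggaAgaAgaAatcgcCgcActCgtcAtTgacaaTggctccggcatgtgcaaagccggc
The longest run of bases that the coding sequences of both actins share measures 62 bases, from coding base 889 to 950 in each, which is shorter than a read of this dataset. It is shown as the longest stretch over which these coding sequences cannot be told apart.
Shared by Actb and Actg1: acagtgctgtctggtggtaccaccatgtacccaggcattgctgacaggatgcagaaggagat

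The beta-thymosins Tmsb4x and Tmsb10 encode peptides of 44 residues, of which 33 are identical. Their whole coding sequences of 135 bases, stop codon included, are shown with the 40 differing bases in capitals, since the differences are spread along the whole length. They span 2 coding exons on the minus strand of each gene, at chrX:167207501-167208036 for Tmsb4x and chr6:72957618-72958012 for Tmsb10 on GRCm38, intron included.
Tmsb4x: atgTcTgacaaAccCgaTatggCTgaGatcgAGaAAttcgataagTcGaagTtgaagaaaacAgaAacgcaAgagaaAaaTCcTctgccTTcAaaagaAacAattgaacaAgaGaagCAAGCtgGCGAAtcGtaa
Tmsb10: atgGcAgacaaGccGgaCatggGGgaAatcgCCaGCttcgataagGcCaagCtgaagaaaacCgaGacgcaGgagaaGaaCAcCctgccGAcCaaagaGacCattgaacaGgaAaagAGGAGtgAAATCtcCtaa
Their longest identical run is 10 bases. In the remaining pairs the identical coding bases were 61.47% for Pfn1 and Pfn2, 71.46% for Cfl1 and Cfl2 and 73.53% for Myh9 and Myh10. The longest identical run is 12 bases between the profilins and 11 bases between the cofilins.

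The myosins stand apart in that respect. Although their coding sequences differ throughout, Myh9 and Myh10 share an unbroken run of 122 identical bases, which is shown because it is the longest between any pair examined. Like the run of the actins, it is shorter than a read of this dataset. It covers codons 461 to 501 of Myh9 and 468 to 508 of Myh10, within the part that encodes the motor domain. In Myh9 it lies at chr15:77786539-77786660 on the minus strand and in Myh10 at chr11:68768199-68768320 on the plus strand, in 1 coding exon of each gene.
Shared by Myh9 and Myh10: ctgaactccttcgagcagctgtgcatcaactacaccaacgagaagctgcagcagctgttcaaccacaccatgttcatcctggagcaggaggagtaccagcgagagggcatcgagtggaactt
Of the 5 pairs, the myosins were the only one with a 75-nt word in common, with 48 words in each. A word here is any stretch of that length in an annotated transcript of the gene, and the shared ones were 0.365% of those of Myh9 and 0.451% of those of Myh10. Words are shorter than a read of this dataset, so a read that holds a shared word can still differ elsewhere.

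Actb, the beta actin found in nearly all non-muscle cells, was the highest of the 10 genes. It had 1941, 1899 and 1912 FPKM in libraries 1, 2 and 3, and its mean was 1918 ± 21.5 (SD, n = 3). It ranked 15 among the 10813 protein-coding genes whose mean FPKM reached 1, and its lowest library lay above every library of the other members. Bulk RNA gives an average over cells, so a difference in the number of expressing cells and in the RNA per cell cannot be told apart. Actg1, the gamma actin of the same non-muscle cells, had 1056, 908.0 and 1049 FPKM, and its mean was 1005 ± 83.7 (SD, n = 3), at rank 49. Libraries 1 and 3 were close to each other, while library 2 was lower than both. Actb exceeded Actg1 by a factor of 1.84, 2.09 and 1.82 in libraries 1, 2 and 3, and it made up 65.7% ± 1.73 (SD, n = 3) of their summed FPKM. The genes nearest to Actb in log2(FPKM + 1) over the 3 libraries were Rps3a1 and Rps4x, which encode ribosomal proteins, and Ctsl, which encodes a lysosomal protease. Their root mean square differences from Actb were 0.06, 0.16 and 0.13 on the log2 scale, which describes likeness of level only, since the libraries share 1 condition.

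Muscle actins added little to the cytoplasmic ones. Acta2, the smooth muscle actin that fibroblasts can also make, had 34.3, 34.1 and 35.5 FPKM in libraries 1, 2 and 3. Acta1 and Actg2, of skeletal and enteric smooth muscle, stayed at or below 0.139 FPKM in each library, and Actc1, of the heart, was listed at 0.

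Of the monomer-binding proteins, Tmsb10 was the highest. It had 648.4, 655.1 and 639.8 FPKM in libraries 1, 2 and 3, with a mean of 647.8 ± 7.67 (SD, n = 3). Tmsb4x, located on the X chromosome, had 287.9, 279.9 and 283.4 FPKM, with a mean of 283.7 ± 3.99 (SD, n = 3). Tmsb10 thus lay above Tmsb4x in all 3 libraries without overlap, and Tmsb4x made up 30.5% ± 0.455 (SD, n = 3) of the FPKM of this pair. Pfn1, the widely expressed profilin, had 325.7, 323.0 and 329.0 FPKM, with a mean of 325.9 ± 2.99 (SD, n = 3). Pfn2, the profilin best known from neurons, had 35.7, 33.2 and 35.3 FPKM, with a mean of 34.7 ± 1.34 (SD, n = 3), and was the lowest of the 10 genes. Pfn1 exceeded Pfn2 by a factor of 9.13, 9.73 and 9.31, the widest gap within a pair.

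Of the severing proteins, Cfl1, the non-muscle cofilin, was above Cfl2, the cofilin of muscle. Cfl1 had 278.8, 288.1 and 291.2 FPKM in libraries 1, 2 and 3, with a mean of 286.1 ± 6.44 (SD, n = 3). Cfl2 had 87.0, 86.1 and 88.9 FPKM, with a mean of 87.3 ± 1.46 (SD, n = 3). The form named after muscle was therefore well detected here, with 5529 fragments over the 3 libraries, at a Cfl1 to Cfl2 ratio of 3.21, 3.35 and 3.27. Cfl2 also lay next to Dstn, which encodes the third severing protein of this family and had 83.8, 83.0 and 81.7 FPKM. In the deposited values, the lowest library of Cfl2 lay above the highest of Dstn. Divided by the length of its 1 protein-coding isoform, 2940 nt, Cfl2 had 44.0 FPKM. Dstn was not computed with another length, so the order of Cfl2 and Dstn was not settled.

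Myh9, the heavy chain of nonmuscle myosin IIA, had 948.0, 975.9 and 945.1 FPKM in libraries 1, 2 and 3, with a mean of 956.3 ± 17.0 (SD, n = 3). Myh10, the heavy chain of nonmuscle myosin IIB, had 117.7, 119.6 and 118.9 FPKM, with a mean of 118.7 ± 0.932 (SD, n = 3). Myh9 exceeded Myh10 by a factor of 8.05, 8.16 and 7.95, and made up 89.0% ± 0.130 (SD, n = 3) of their sum, the steadiest proportion among the pairs. Myh14, the third heavy chain of this class, had 0 fragments in libraries 1 and 2 and 0.0577 FPKM in library 3.

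**Figure D1:**
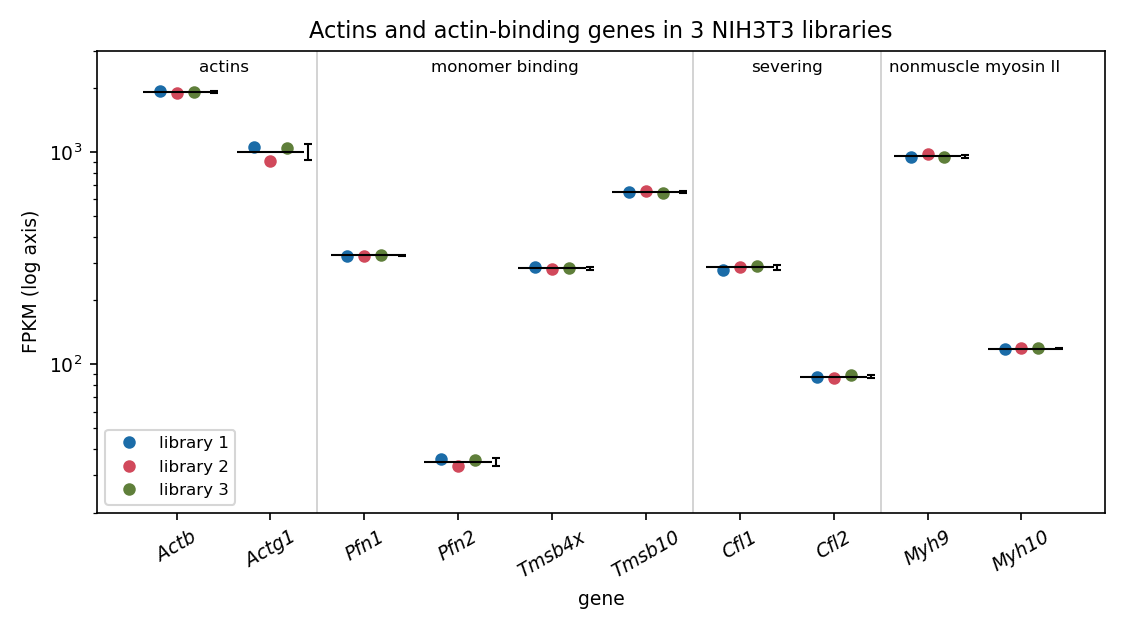
FPKM (log axis) of the 10 genes in libraries 1, 2 and 3 (coloured points), ordered by role, with the mean as a line and the SD over the 3 libraries as an error bar beside it. The points of each gene nearly coincide, except for Actg1, whose library 2 sits at 908.0 FPKM below 1056 and 1049.

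Within each pair, 1 gene was higher in each of the 3 libraries. On the log2 scale the ratio was 0.94 ± 0.11 for Actb over Actg1, 3.23 ± 0.05 for Pfn1 over Pfn2, -1.19 ± 0.03 for Tmsb4x over Tmsb10, 1.71 ± 0.03 for Cfl1 over Cfl2 and 3.01 ± 0.02 for Myh9 over Myh10 (SD, n = 3). The size of each ratio exceeded its SD. By flipping signs in an exact permutation test (two-sided), p was 0.25 for every ratio, and adjusting over the 5 (Benjamini-Hochberg) left it at 0.25. With 3 libraries this test cannot give a smaller p, so it could not pass 0.05.

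Ordered by mean FPKM, the genes were Actb, Actg1, Myh9, Tmsb10, Pfn1, Cfl1, Tmsb4x, Myh10, Cfl2 and Pfn2. Of the 9 neighbouring pairs in this order, 7 did not overlap between libraries. The exceptions were Actg1 and Myh9, whose ratio was 1.11, 0.930 and 1.11 in libraries 1, 2 and 3, and Cfl1 and Tmsb4x, whose ratio was 0.969, 1.03 and 1.03. The order of the genes within these pairs thus could not be told from the libraries. The narrowest gap without overlap was that of Pfn1 over Cfl1, at 1.14 ± 0.0250 (SD, n = 3). In the same exact permutation test on the 9 neighbours, the p adjusted over the 9 was 0.321 where all libraries agreed in direction, 0.563 for Actg1 and Myh9 and 1.0 for Cfl1 and Tmsb4x. The 0.321 is the smallest possible p of 0.25 after adjustment, so it does not grade the gaps. The order was taken from the means of the same libraries, so this test cannot decide it.

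When the genes were summed by role, the actins reached 2998, 2807 and 2962 FPKM in libraries 1, 2 and 3. The profilins, beta-thymosins and cofilins together reached 1663, 1665 and 1668 FPKM, which was nearly the same in each library. The actins therefore exceeded the sum of these monomer-binding and severing proteins by a factor of 1.80, 1.69 and 1.78, and the lowest factor was that of library 2, where Actg1 was lowest. Other genes with these roles, such as Cap1 and Gsn, were not part of the sum. Against single roles, the factor was 8.10 ± 0.209 for the profilins, 7.83 ± 0.349 for the cofilins, 3.14 ± 0.117 for the beta-thymosins and 2.72 ± 0.137 for the myosin heavy chains (SD, n = 3). The 10 genes held 0.820% ± 0.00862 (SD, n = 3) of the summed FPKM and 0.660% ± 0.00661 of the fragments.

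These comparisons between genes depend on the length by which fragments are divided. The deposited values divide by the mean length of all annotated isoforms, among which are short partial ones, and this shortens some members more than others. For Myh9, the 9 annotated isoforms run from 329 to 7433 nt, with 3 of them protein coding, and their mean is 2127 nt. The principal isoform, the one GENCODE marks as the main protein-coding form, is 3.495 times as long. For Actb, the principal isoform of 1920 nt is 2.19 times as long as the mean of 876 nt, while for Tmsb4x the factor was 0.989 and for Pfn1 0.822.

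With the length of the principal isoform, a choice made after the values were seen, Myh9 moved from the third to the sixth place among the 10 genes. It then had 271.3, 279.3 and 270.4 FPKM in libraries 1, 2 and 3, below Tmsb4x with 291.2, 283.2 and 286.8 and Pfn1 with 396.4, 393.2 and 400.5. Tmsb10, at 543.6 ± 6.44, then had a mean above that of Actg1, at 532.7 ± 44.4 (SD, n = 3), although their libraries overlapped. Actb stayed first, at 874.9 ± 9.83, and Pfn2 last, at 22.01 ± 0.849 (SD, n = 3). The actins no longer exceeded the sum of profilins, beta-thymosins and cofilins, with factors of 0.9995, 0.934 and 0.988 in libraries 1, 2 and 3, against 1.80, 1.69 and 1.78 with the deposited length. With the longest isoform, this factor was 1.19 ± 0.0445 (SD, n = 3). The direction within each of the 5 pairs was the same under all 4 choices of length, but the size was not. For the actins, cofilins and myosins, the principal isoform is also the longest, so these choices coincide. On the log2 scale, Pfn1 over Pfn2 was 3.23 with the deposited length and 4.17 with the principal isoform, and Cfl1 over Cfl2 was 1.71 and, with the mean of the protein-coding isoforms, 2.51. Myh9 over Myh10 was 3.01, and ranged from 2.54 with the longest isoform to 3.61 with the mean of the protein-coding isoforms.

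**Figure D2:**
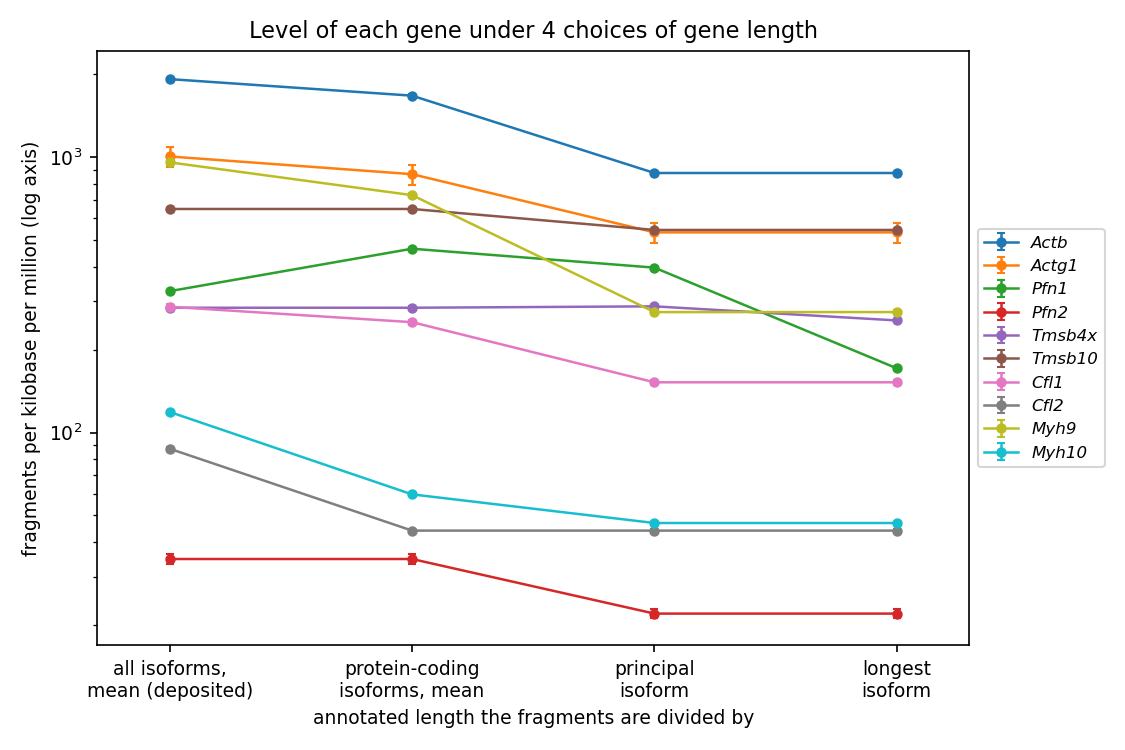
Level of each of the 10 genes (log axis, mean over the 3 libraries with the SD as error bar) when its fragments are divided by each of 4 annotated lengths. Myh9 drops from 956.3 to 273.7 between the deposited length and the principal isoform, whereas Tmsb4x stays between 255.2 and 287.1, and Actb is the highest throughout.

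The FPKM values also rest on numbers of fragments, which show whether libraries differ by more than counting error. The fragments ranged from 688 for Pfn2 in library 2 to 29082 for Myh9 in library 1. A chi-square test on the fragments of each gene, which compares these libraries and not conditions, called 2 of the 10 genes at an adjusted p under 0.05, against 2.02% of the 13643 genes tested. All members rest on at least 2000 fragments, and of the 4923 genes with as many, 3.49% were called. The genes called were Actg1 and Myh9. Both calls rested on library 2, since 0 of the 10 genes were called without it.

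For Actg1, the fragments were 15770, 13119 and 15539 in libraries 1, 2 and 3. Relative to the library totals, the deviation from the mean of the libraries was 5.16%, -9.62% and 4.46%, and that of library 2 had an exact Poisson 95% interval from -11.16% to -8.055%, which covers counting error only. Its coefficient of variation was 8.33%, where counting error alone would give 0.822%. The highest library exceeded the lowest by a factor of 1.16, and of the 4923 genes with at least 2000 fragments, 1.93% had a larger factor. Without library 2, the mean of Actg1 was 1053 FPKM.

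For Myh9 the departure was small. The fragments were 29082, 28976 and 28761, the coefficient of variation was 1.78% against 0.588% from counting error, and the highest library exceeded the lowest by a factor of 1.03. A larger factor was found for 67.4% of the 4923 genes, and Myh9 had 86819 fragments, the most of the 10 genes. Its call was lost with median-of-ratios scaling of the libraries, at an adjusted p of 0.0979, while that of Actg1 was kept. For Pfn1, Tmsb4x, Tmsb10, Cfl2 and Myh10, the coefficient of variation over libraries was below that of counting error, and for Actb, Pfn2 and Cfl1 it was 1.12%, 3.86% and 2.25% against 0.647%, 3.69% and 1.40%.

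**Figure D3:**
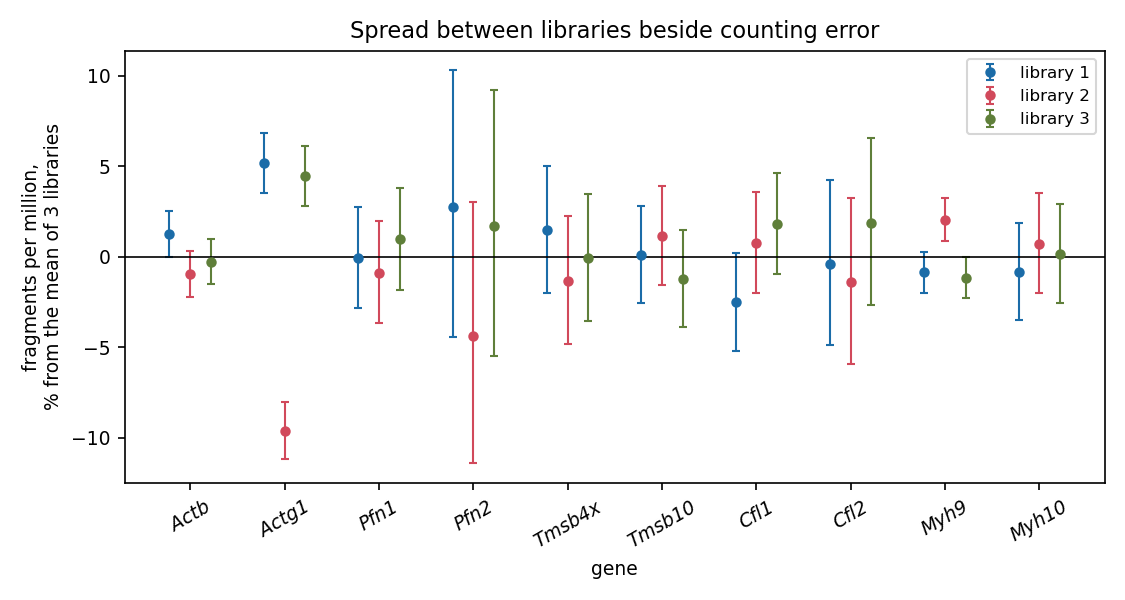
Fragments of each gene relative to the library total in libraries 1, 2 and 3, as percent from the gene's mean over the 3 libraries, with exact Poisson 95% intervals that cover counting error only. Library 2 of Actg1 sits at -9.62%, far outside the intervals of libraries 1 and 3, and library 2 of Myh9 at 2.05% lies above its other libraries.

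Actg1 was also the member with the most sequence in common with other genes. Of the 3058 distinct 75-nt words in its annotated transcripts, 33.45% occur in a transcript of another gene, against 1.58% for Actb. The sharing genes number 10, and 9 of them are annotated as pseudogenes, led by Gm12715 with 898 words and Gm8399 with 502. None of the words of Actg1 occur in Actb. Gm12715 had 8.61, 8.38 and 8.30 FPKM in libraries 1, 2 and 3. The FPKM of all 9 pseudogenes, each scaled to its own length, summed to 14.4, 13.5 and 13.5 in libraries 1, 2 and 3. Added to that of Actg1, this gave 1071, 921.5 and 1063. The added amount was too small to change which library was the lowest. The part of the shared sequence in the library difference was not tested. Whether it lowered the count of Actg1 beside that of Actb was not tested either.

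Among the other members, Tmsb10 shared 19.25% of its words, most of them with Gm9844, which is listed as protein coding at 19.2, 20.97 and 21.6 FPKM. Cfl1 shared 12.91%, largely with Snx32 on the opposite strand, whose exons overlap those of Cfl1 over 468 nt. Whether strand was used in counting is not given in the sources used here. Snx32 had no more than 0.813 FPKM in any library, and the effect of the overlap on the count of Cfl1 was not tested. Pfn1, Pfn2 and Tmsb4x shared no word with another annotated gene.

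The genes lie apart in the genome, on 8 chromosomes of GRCm38. Actb (ENSMUSG00000029580) spans 142903115 to 142906754 of chromosome 5, Tmsb10 (ENSMUSG00000079523) spans 72957347 to 72958748 of chromosome 6 and Tmsb4x (ENSMUSG00000049775) spans 167207093 to 167209315 of chromosome X. Chromosome 11 holds 3 of the members. They are Actg1 (ENSMUSG00000062825) at 120345690 to 120348542, Pfn1 (ENSMUSG00000018293) at 70651850 to 70654644 and Myh10 (ENSMUSG00000020900) at 68691559 to 68816632. Pfn2 (ENSMUSG00000027805) is on chromosome 3 from 57841895 to 57848079, Cfl1 (ENSMUSG00000056201) on chromosome 19 from 5490455 to 5495201 and Cfl2 (ENSMUSG00000062929) on chromosome 12 from 54858809 to 54862877. Myh9 (ENSMUSG00000022443) is on chromosome 15 from 77760587 to 77842175.

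The wider machinery of actin turnover was broadly present. Of 118 genes in lists set by role, among them the 4 muscle actins and the 8 members other than the actins, 87 had a mean FPKM of at least 1, or 73.7%, against 49.2% of all 21980 protein-coding genes. Their median was 44.8 FPKM, against 0.804 over all protein-coding genes. Without the members, 79 of 110 genes reached an FPKM of 1, with a median of 35.3. Of the genes that did not, 9 were listed at 0 in all libraries.

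All 10 genes of the Arp2/3 list, the complex that starts branches on filaments, had a mean FPKM of at least 1. Arpc1b was the highest at 448.9 ± 5.69 (SD, n = 3) and Actr3b the lowest at 2.81 ± 0.130, beside Actr3 at 294.5 ± 7.30. Of its 14 activators 10 were above that limit, led by the cortactin gene Cttn at 322.7 ± 7.13. Was and Nckap1l, which are used mainly in blood cells, stayed under 0.1 FPKM on average, as did Wasf3. Among 13 formins, which elongate unbranched filaments, 10 were above the limit, with Inf2 highest at 130.4 ± 2.17 and Fhod3 lowest at 0.0445 ± 0.0286 (SD, n = 3).

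With the deposited lengths, members led the lists in which they stood. Cfl1 had 152.1 and Myh9 273.7 FPKM with the principal isoform, while the other genes of these lists were not computed with it. The values that follow use the deposited lengths. Among 14 monomer-binding genes, Tmsb10 was the highest, and Cap1, which recharges monomers with nucleotide, had 271.3 ± 6.98 FPKM (SD, n = 3), its highest library at 279.2 just below the lowest of Tmsb4x at 279.9. Pfn3, Cap2, Tmsb15l, Tmsb15b1 and Tmsb15b2 were listed at 0. Among 17 genes for severing and its control, Cfl1 was the highest at 286.1, followed by the gelsolin gene Gsn at 256.1 ± 4.33 (SD, n = 3), and Scin, a relative of gelsolin, was listed at 0. In the list of nonmuscle myosin II, Myh9 led, and the essential light chain gene Myl6 had 290.5 ± 2.48 FPKM. Of the regulatory light chains, Myl12a had 57.1 ± 1.08 FPKM, while Myl9 and Myl12b had 1.02 ± 0.118 and 0.860 ± 0.285 FPKM (SD, n = 3). Shared words were counted for the members only, so the effect of shared sequence on the light chain genes was not tested.

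In the other lists, 9 of 13 capping genes, 7 of 11 crosslinkers and all 4 tropomyosins reached an FPKM of 1. The highest were Capg at 480.1 ± 5.26, the filamin gene Flna at 324.6 ± 5.45 and Tpm3 at 441.6 ± 4.61 FPKM (SD, n = 3). The lowest were Capza3 and Actn2, both listed at 0, and Tpm2 at 63.3 ± 0.656 FPKM. With the deposited lengths, Actb, Actg1, Myh9 and Tmsb10 lay above all 110 of the other list genes, whose levels were not computed with other lengths.

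**Figure D4:**
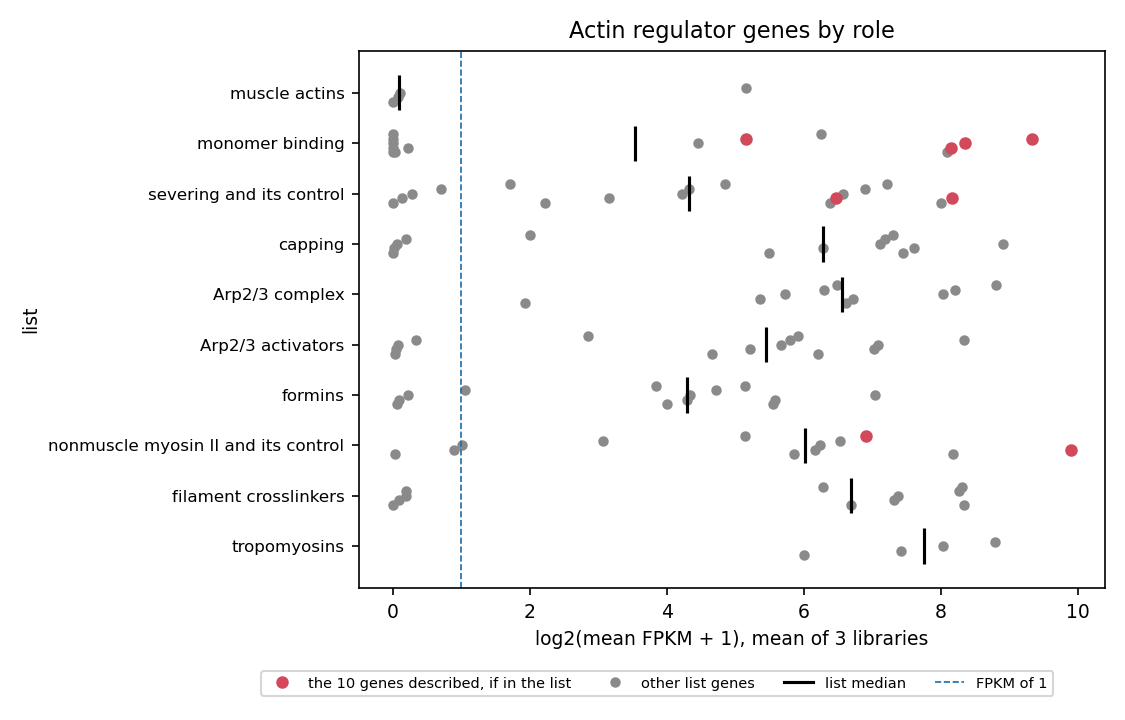
Level of the actin regulator genes in 10 lists as log2(mean FPKM + 1) over the 3 libraries, 1 row per list, with the members in red, other genes in grey, the list median as a black bar and an FPKM of 1 as a dashed line. Myh9 and Tmsb10 are the rightmost points, the Arp2/3 complex and tropomyosin lists lie wholly to the right of the dashed line, and muscle actins lie left of it except Acta2.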

How the data were processed

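According to the study's methods, UMI-tools 1.0.0 served to find UMIs, HISAT2 (2.0.4 in the submitters' processing notes) to map the reads that had one, copies with equal position and UMI were removed, and reads were counted per gene with HTSeq 0.6.1. The authors deposited FPKM values, 1 column per library and not pooled. The genome build and annotation are not given in the sources used here. Of the value columns, 0 were left unused, and the second table holds the same values.

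No count model was used on FPKM. Fragments were recovered as FPKM times library total times the mean isoform length in GENCODE M21 (GRCm38), which gave whole numbers (within 0.01) for 99.2% of 26178 annotated genes with fragments. The others were left out of the chi-square test, which took genes with at least 30 fragments. Recovery and test were tested on simulated data. Sequences are from GENCODE transcripts. Python 3.11.15, numpy 2.4.6, pandas 2.3.3, scipy 1.17.1, biopython 1.88 and matplotlib 3.10.9 were used.

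The members, role lists and tests were chosen with earlier results of these data known. Some list results are not reported here. The genes named are the members, other actins, genes sharing words with a member, the highest and lowest of each list and those at 0, and the 3 genes nearest to Actb. Nckap1l, Was, Dstn, Gsn, Cap1, Actr3, Myl6, Myl9, Myl12a and Myl12b were added to these names once their values were known. Alternatives were other lengths, each replicate left out, a pseudocount of 1, TPM, median-of-ratios scaling, added pseudogenes and other limits. The mean over protein-coding isoforms, the principal isoform and the limit of 2000 fragments were added later.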

Additional observations from a re-analysis of the deposited data

How the results depend on the processing

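The alternatives gave 142 values for the ratios within pairs, the share, the counts and the single means, and none of the 45 values for the ratios changed sign. Many of the 45 could not. All libraries agreed in direction within each pair, so leaving out a replicate or adding a pseudocount could not reverse a sign. Added pseudogenes left the profilins and myosins unchanged, as these had none. For the actins, cofilins and myosins, the principal isoform is also the longest, so these choices gave the same value. Comparisons between roles and between genes of different roles did turn with the length. With the principal isoform, the actins over the sum of profilins, beta-thymosins and cofilins went from 1.755 to 0.974. Myh9 then fell below Tmsb10, Pfn1 and Tmsb4x. Among other lengths, the largest move of a ratio was that of Pfn1 over Pfn2, from 3.23 to 4.17 on the log2 scale with the principal isoform. The share of the 10 genes in the summed FPKM, 0.820%, became 0.937% among protein-coding genes and 0.660% with fragments not divided by length. The number of genes called as different between libraries, 2 with the library totals, was 1 with median-of-ratios scaling and ranged from 0 to 2 when each replicate was left out, with 0 without library 2. The cause was not tested. Of the 80 values for single means, 36 moved by more than the SD, all of them with TPM or with another length. The moves with TPM reflect a change of unit. TPM scales each library to a sum of 1000000, whereas the summed FPKM lay between 685086 and 699299. No paired analysis was possible because all libraries belong to a single group. The sign-flip test of the ratios could not give a p below 0.25 with 3 libraries.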
